A study of Mus musculus with 8 samples.

Results

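The transcriptional co-activators YAP (Yap1) and TAZ (Wwtr1) of the Hippo pathway, 3 genes that are widely used as their targets (Ankrd1, Amotl2 and Lats2) and 5 genes of the CCN family of secreted matricellular proteins (Ctgf, Cyr61, Nov, Wisp1 and Wisp2) were followed in bone marrow mesenchymal stem cells (MSCs) of mice. The 10 genes were chosen by their symbols among the 47643 named entries of the expression table, and all 10 passed the filter on low counts, as did 15327 entries in all. The RNA-seq data comprised 2 WT libraries and 2 cKO libraries. The WT libraries were labelled wild type, and the study describes these controls as Mettl3fl/fl and as littermates. The cKO libraries were labelled Prx1-Cre;Mettl3fl/fl. Mettl3 is the catalytic subunit of the complex that writes N6-methyladenosine (m6A) on mRNA, and Prx1-Cre is active in limb bud mesenchyme and its descendants. All cells were labelled C57BL/6, came from flushed tibiae and femurs, and had spent 2 days in osteogenic medium, which held 100 nM dexamethasone, 50 μg ascorbic acid per ml and, as a phosphate donor, β-glycerophosphate at 5 mM. The mice's age and the number of animals behind a library were not given in the sources used here, so the p-values measure only the spread between these libraries. The m6A data were 1 list of 10160 MeRIP-Seq peaks from 2 immunoprecipitates and 2 inputs of wild type MSCs, and they hold no cKO sample.

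The Hippo kinases MST1/2 (Stk4, Stk3) and LATS1/2 phosphorylate YAP and TAZ and keep them out of the nucleus. When this brake is released, YAP and TAZ bind the TEAD factors on DNA and switch on genes such as Ctgf, Cyr61, Ankrd1, Amotl2 and Lats2, of which Amotl2 and Lats2 in turn restrain YAP and TAZ. CCN proteins are secreted, bind integrins, the receptor LRP1 and heparan sulfate proteoglycans, and are known for roles in cartilage, bone and fibrous tissue. Wisp1 and Wisp2 are also known as genes induced by Wnt signals, and Nov as a member that often moves against Ctgf.

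The libraries held 23978099 to 34106693 estimated counts. Mettl3 itself stood at 17.6 and 16.9 CPM (read counts scaled to library size by TMM) in the WT libraries and at 17.5 and 16.3 CPM in the libraries labelled cKO. The log2 fold change of Mettl3 was -0.03 ± 0.09 (SE, n = 2 per group, adjusted p = 0.824), so these totals over all exons do not show the deletion, which per the study's methods removes exons inside the gene. The totals of Mettl3 therefore do not check the labels, and every direction below is that of the libraries labelled cKO. The spread within the groups was unequal, with a biological coefficient of variation of 12.3% between the WT libraries and 1.92% between the libraries labelled cKO. The latter pair differed by 1.82 times the sampling noise (chi-square per degree of freedom over genes), against 32.4 times for the WT pair. The cKO pair was counted as 2 samples, though whether its libraries came from separate animals was not given. Fits with the cKO libraries summed to 1 sample are therefore given as well, below for Wisp1, Yap1, Wwtr1 and Ankrd1. For the other members called, the log2 fold change in that fit was 1.01 (Ctgf), -1.61 (Wisp2), -1.23 (Nov) and 0.513 (Amotl2). Cell type markers also moved with the labels. The 7 chondrocyte markers measured, Acan and Col2a1 among them, were all lower, with a summed level of 4329 and 4427 CPM in WT and 259.1 and 262.8 CPM in cKO. Macrophage markers were high in every library, at 18660 and 22910 CPM in WT and 24590 and 24720 CPM in cKO, and 3 of 9 were called higher (Ptprc, C1qa, C1qb). Most of this sum was Lyz2, which was not called, at 10984 and 15934 CPM in WT and 15633 and 15714 CPM in cKO. Of the 12 marrow stromal markers, 4 were higher and 7 lower, with sums of 7307 and 7327 CPM in WT and 4547 and 4611 CPM in cKO. Most of this sum was Vim, Col1a1 and Col1a2, which were lower, as were Ly6a, Eng, Cd44 and Cxcl12. The 4 higher were Thy1 (log2 fold change 4.59), Prrx1 (1.05), Pdgfrb (0.70) and Pdgfra (0.24), so the markers of this list did not move together. Osteoblast markers (5 lower of 7 tested) summed to 6163 and 15010 CPM in WT and to 5865 and 5801 CPM in cKO. Most of this sum was Spp1, which was not called, at 5863 and 14630 CPM in WT and 5694 and 5626 CPM in cKO. The 5 called lower were Runx2, Sp7, Alpl, Bglap and Ibsp. Adipocyte markers (5 higher and 1 lower of 7) summed to 422.9 and 438.6 CPM in WT and to 766.7 and 773.0 CPM in cKO. Neutrophil markers summed to at most 4.281 CPM (S100a9, Mpo and Ngp at 0), erythroid markers to at most 0.6191 CPM (Hbb-bt at 0), and endothelial markers to 5.857 and 5.908 CPM in WT and 18.24 and 15.66 CPM in cKO. The part of these markers' cells in the changes below was not tested, and in such bulk samples fewer cells of a type and less RNA per cell cannot be told apart.

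Of the 10 genes, 6 differed between the groups at an adjusted p under 0.05 (quasi-likelihood test of edgeR, with Benjamini-Hochberg adjustment over all genes tested), against 30.5% of the genes tested. The 10 genes and the gene lists below were chosen with earlier results of these data known. Their counts beside the share of all genes are therefore a description only. Ctgf, Wisp1 and Amotl2 were higher in the libraries labelled cKO and Nov, Wisp2 and Ankrd1 were lower, so 3 members were called in each direction, where 13.7% of all genes were called higher and 16.8% lower. Cyr61, Lats2, Yap1 and Wwtr1 did not pass. The median log2 fold change was 0.09 over the members and -0.004 over all genes tested. The libraries of the 2 groups did not overlap for 8 members, while 68.9% of all genes tested also did not overlap. An ordinary linear model on log2(TPM + 1), a stand-in for the study's Ballgown procedure, called 0 members and 65 genes in all after adjustment, with 5 members at an unadjusted p under 0.05.

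**Figure D1:**
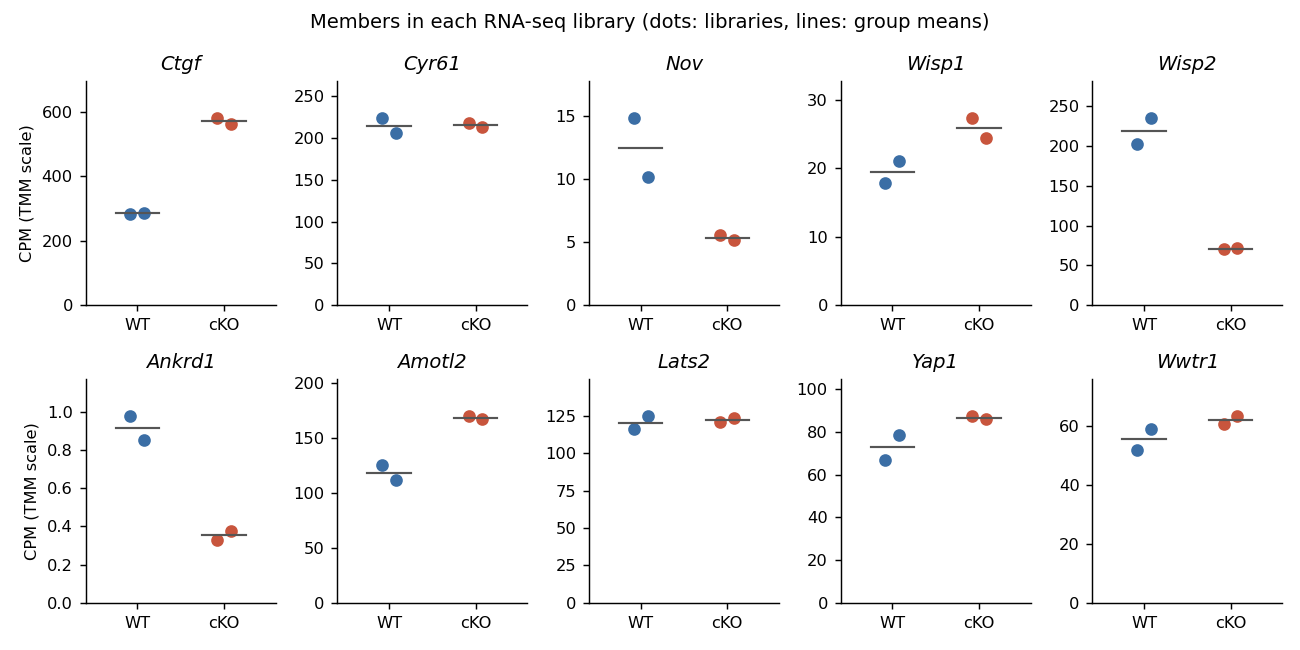
CPM on the TMM scale (y axis, from 0, a separate scale for each gene) of the 10 genes in the 2 WT and 2 cKO libraries. Dots are libraries and lines are group means. Ctgf, Wisp1 and Amotl2 lie higher in both cKO libraries, Nov, Wisp2 and Ankrd1 lie lower, and the groups overlap for Cyr61 and Lats2.

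Among the CCN genes, Ctgf (CCN2; GRCm38 chr10:24595442-24598683, plus strand), which promotes matrix production and chondrocyte growth, was at 283 and 286 CPM in WT and at 579 and 562 CPM in cKO. Both cKO libraries lay far above both WT libraries, which differed by a factor of 1.01. The fold was 2.00 (95% interval 1.82 to 2.21), a log2 fold change of 1.003 ± 0.057 (SE, adjusted p = 9.64e-05). The deposited counts of Ctgf were fractional in 4 of 4 libraries, and how the counting arrives at fractions was not stated. The entry Gm15270 on the opposite strand overlaps Ctgf and held 4 to 13 counts per library, against 8094 to 17899 for Ctgf. Whether the counting used strand was not stated, so reads of the pair cannot be told apart with certainty.

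Cyr61 (CCN1; GRCm38 chr3:145646976-145649981, minus strand), like Ctgf an immediate YAP/TAZ target and an angiogenic matrix protein, was at 223 and 205 CPM in WT and at 218 and 213 CPM in cKO. Both cKO values fell between the WT values. The fold was 1.005, and its 95% interval of 0.901 to 1.12 lies outside that of Ctgf (adjusted p = 0.95). Within a library, the ratio of Ctgf to Cyr61 on the TPM scale (the deposited transcript level, which takes gene length into account) was 1.04 and 1.15 in WT and 2.19 and 2.17 in cKO. The groups did not overlap in this ratio, but the exact two-sided permutation p of 0.333 is the smallest that 2 against 2 libraries can give.

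Wisp2 (CCN5; GRCm38 chr2:163820861-163833146, plus strand), a CCN protein that lacks the carboxy-terminal domain of the other members, moved most. It was at 203 and 235 CPM in WT and at 70.3 and 72.0 CPM in cKO, without overlap. Its log2 fold change was -1.62 ± 0.084 (SE, adjusted p = 6.75e-05), a level 3.08-fold lower in the libraries labelled cKO. Nov (CCN3; GRCm38 chr15:54745702-54754039, plus strand), known to restrain osteoblast differentiation, was at 14.8 and 10.2 CPM in WT and at 5.53 and 5.15 CPM in cKO. The WT libraries differed from each other by a factor of 1.45, yet both lay above the cKO libraries. The log2 fold change of Nov was -1.23 ± 0.20 (SE, adjusted p = 0.00586).

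Wisp1 (CCN4; GRCm38 chr15:66891320-66923201, plus strand), which promotes osteoblast differentiation, was at 17.9 and 21.1 CPM in WT and at 27.3 and 24.4 CPM in cKO. The groups did not overlap, but the gap between them, 21.1 to 24.4 CPM, was close to the spread within each. The log2 fold change was 0.41 ± 0.11 (SE, adjusted p = 0.037). This call was lost when either cKO library was left out (adjusted p = 0.277 without cKO replicate 1 and 0.1 without cKO replicate 2) and when both were summed to 1 sample (adjusted p = 0.166). The remaining family member, Wisp3 (CCN6), had 6 counts in each WT library and 1 count in each cKO library and did not pass the filter.

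**Figure D2:**
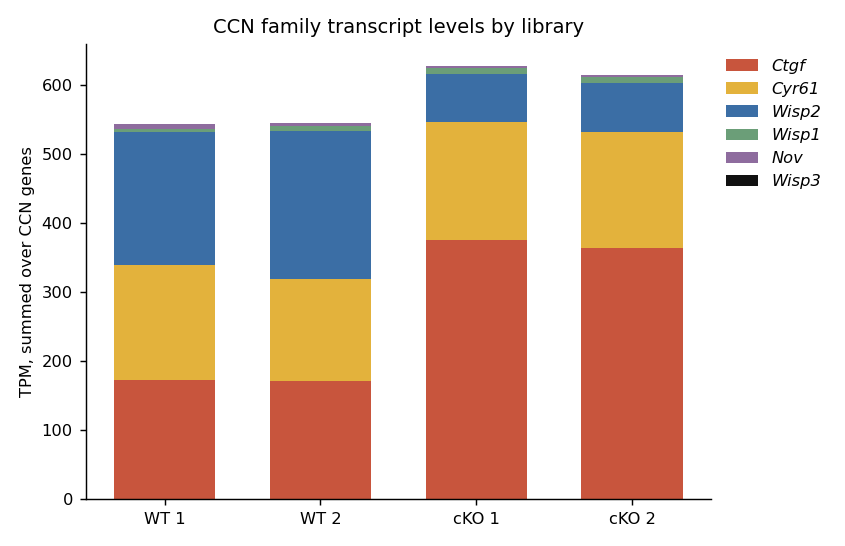
TPM (y axis, from 0) of the 6 CCN genes stacked in each of the 4 RNA-seq libraries. The summed level is 544.1 and 545.2 TPM in WT and 628.1 and 614.6 TPM in cKO, with the share of Ctgf larger and that of Wisp2 smaller in cKO.

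In TPM, the 6 CCN genes together stood at 544.1 and 545.2 in WT and at 628.1 and 614.6 in cKO, a ratio of group means of 1.14. The make-up of this sum differed more than its size. Wisp2 held 35.4% and 39.4% of it in WT and 11.1% and 11.6% in cKO. Ctgf held 31.8% and 31.3% in WT and 59.8% and 59.3% in cKO. Cyr61 lay between 27.2% and 30.5% in every library. In the order of TPM levels, Wisp2 (192.62 and 214.69) stood first in WT, above Ctgf (172.79 and 170.53) and Cyr61 (166.02 and 148.72). Ctgf (375.47 and 364.34) stood first in cKO, above Cyr61 (171.09 and 167.64), Wisp2 (69.45 and 71.55) and Amotl2 (68.96 and 67.76). Nov and Wisp1 were the only neighbours in the WT order whose libraries overlapped. Nov was at 7.40 and 4.98 TPM and Wisp1 at 5.05 and 6.09 TPM in WT. In cKO Wisp1 (9.15 and 8.33 TPM) stood above Nov (2.92 and 2.73 TPM), and no neighbours overlapped. Ankrd1 was last in both groups, at 0.85 and 0.72 TPM in WT and 0.30 and 0.35 TPM in cKO.

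Neither co-activator passed the test. Yap1 (GRCm38 chr9:7931999-8004596, minus strand) was at 66.9 and 78.6 CPM in WT and at 87.3 and 85.9 CPM in cKO. Wwtr1 (GRCm38 chr3:57455649-57575910, minus strand), which encodes TAZ, was at 51.9 and 59.0 CPM in WT and at 60.7 and 63.3 CPM in cKO. For neither gene did the groups overlap, with both cKO libraries above both WT libraries. The fold was 1.19 for Yap1 (95% interval 1.03 to 1.38, adjusted p = 0.0726) and 1.12 for Wwtr1 (95% interval 0.977 to 1.28, adjusted p = 0.181). The fit without the filter on low counts gave Ctgf an adjusted p of 1.32e-42, against 9.64e-05 in the main fit. The replicate numbers used as a block did not pair the libraries. Values from these 2 settings are therefore not read as support. The call for Yap1 depended on the setting. Its adjusted p was 0.0481 with the replicate number as a block and 0.00929 without the filter on low counts, but 0.337 without cKO replicate 1, 0.286 without cKO replicate 2 and 0.303 with the cKO libraries summed. Without a WT library the lone WT library is assumed to vary as little as the cKO pair does, and the adjusted p of Yap1 was then 0.00241 (without WT replicate 1) and 1.07e-13 (without WT replicate 2), values that cannot be read as support. For Wwtr1 the same fits gave 0.164 and 3.9e-06, against 0.439 and 0.626 without cKO replicate 1 and 2 and 0.506 with the cKO libraries summed. In TPM, Yap1 exceeded Wwtr1 by a factor of 1.49 and 1.54 in WT and of 1.69 and 1.58 in cKO.

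The 3 target genes outside the CCN family went 3 ways. Amotl2 (GRCm38 chr9:102716672-102733418, plus strand), an angiomotin that binds YAP and holds it in the cytoplasm, was at 125 and 111 CPM in WT and at 170 and 167 CPM in cKO. Both cKO libraries lay above both WT libraries, and the log2 fold change was 0.51 ± 0.074 (SE, adjusted p = 0.00386). Lats2 (GRCm38 chr14:57642077-57758388, minus strand), the kinase that phosphorylates YAP and TAZ, was at 116 and 125 CPM in WT and at 121 and 124 CPM in cKO. The cKO values of Lats2 lay between those of WT, with a fold of 1.02 (95% interval 0.914 to 1.13, adjusted p = 0.805). The neighbouring gene Xpo4, on the same strand, overlaps the Lats2 entry and held 353 to 527 counts per library, against 2932 to 3944 for Lats2. The count of Lats2 was fractional in 1 library, and how reads in the overlap were assigned was not stated.

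Ankrd1 (GRCm38 chr19:36111965-36119844, minus strand), a nuclear ankyrin repeat protein known from heart and skeletal muscle, was scarce. It had 33 and 24 counts (0.976 and 0.849 CPM) in WT and 8 and 12 counts (0.330 and 0.377 CPM) in cKO. The groups did not overlap, and the log2 fold change was -1.35 ± 0.38 (SE, adjusted p = 0.0388). The call was lost with DESeq2 (adjusted p = 0.178), with the replicate number as a block (0.0524), without WT replicate 1 (0.0812), without cKO replicate 1 (0.27), without cKO replicate 2 (0.237) and with the cKO libraries summed (0.222). The log2 fold change of Ankrd1 ran from -1.45 to -0.43 over the 12 alternatives. The value of -0.43 came from the fits on log2(TPM + 1), in which the added 1 exceeds the TPM of Ankrd1 in every library. With 0.1 added instead it was -1.06. The 12 alternatives reuse the same libraries, whose groups do not overlap for this gene, so the constant sign adds no support.

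**Figure D3:**
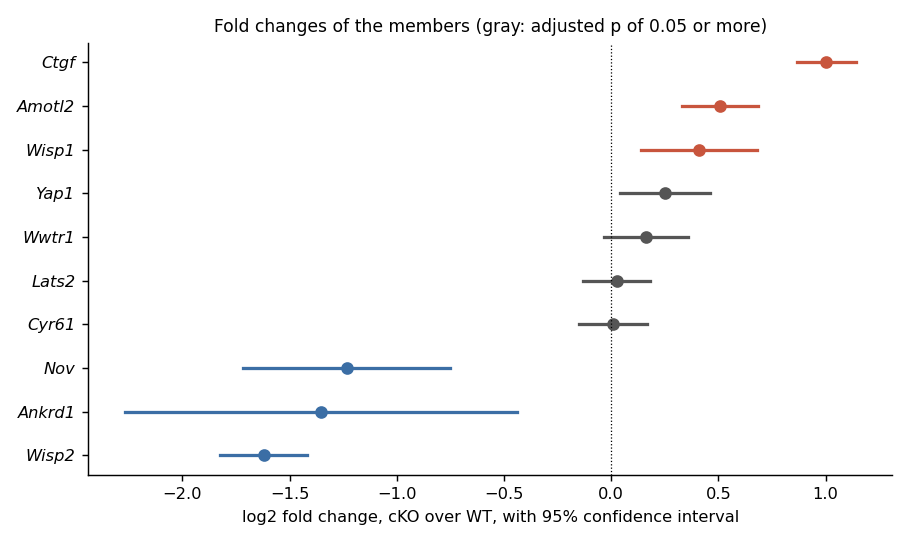
log2 fold change of each of the 10 genes, cKO over WT (x axis), with its 95% confidence interval from the fit across all genes. Blue marks genes called lower, red those called higher and gray those not called. The interval of Ctgf, from 0.87 to 1.14, lies apart from that of Cyr61, from -0.15 to 0.16.

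For 6 of the 10 genes a promoter sequence was at hand (Cyr61, Ankrd1, Amotl2, Lats2, Yap1 and Wwtr1, from RefSeq on GRCm38.p6, matched by symbol or synonym). Those of Ctgf, Nov, Wisp1 and Wisp2 were not analysed here. In these windows of 300 bases around the start site, the core letters of the TEAD binding motif, GGAATG, were searched on both strands. All 6 members held the letters in at least 1 annotated window. Counted by single windows and not by gene, 14.7% of all 32851 promoter windows held them, and a share by gene was not computed. Lats2 and Wwtr1 had 2 annotated windows each, and the second of Lats2 held no copy. Ankrd1 held 2 copies, and 1.36% of all windows held at least 2. The letters of the AP-1 motif, TGANTCA, and the CArG box bound by SRF were found in 0 of the 6, against 7.81% and 1.63% of all windows. A match of letters is a description and not a bound site. The 250 bases before the start site of 3 members that differed in their response are shown because they hold the same motif, in capitals as GGAATG or, on the opposite strand, as CATTCC. The motif began 103 bases before the start in Cyr61 (which did not pass the test), 65 bases before it in Amotl2 (higher), and 210 and 123 bases before it in Ankrd1 (lower). The windows are chr3:145649986-145650235, minus strand, for Cyr61, chr9:102717554-102717803, plus strand, for Amotl2, and chr19:36119845-36120094, minus strand, for Ankrd1.
Cyr61: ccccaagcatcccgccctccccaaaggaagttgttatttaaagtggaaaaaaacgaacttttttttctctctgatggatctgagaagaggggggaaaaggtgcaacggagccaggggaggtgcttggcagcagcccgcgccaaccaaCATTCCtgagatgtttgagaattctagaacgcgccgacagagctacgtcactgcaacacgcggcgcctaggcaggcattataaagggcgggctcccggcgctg
Amotl2: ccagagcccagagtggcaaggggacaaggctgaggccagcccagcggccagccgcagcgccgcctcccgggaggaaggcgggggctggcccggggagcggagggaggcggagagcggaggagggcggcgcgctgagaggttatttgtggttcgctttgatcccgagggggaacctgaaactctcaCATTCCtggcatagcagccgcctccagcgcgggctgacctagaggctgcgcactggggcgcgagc
Ankrd1: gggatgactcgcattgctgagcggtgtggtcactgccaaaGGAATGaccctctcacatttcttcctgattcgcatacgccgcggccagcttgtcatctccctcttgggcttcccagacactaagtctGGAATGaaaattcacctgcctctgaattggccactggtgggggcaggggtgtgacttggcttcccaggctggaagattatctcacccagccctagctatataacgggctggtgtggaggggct

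In the promoters of the co-activators themselves the motif began 141 bases before the start of Yap1 and 136 bases before the first start site of Wwtr1. In Lats2 it began at base 5 of the transcribed sequence from the first start site, and the second start site had none. The 30 bases around it (GRCm38.p6 chr14:57746102-57746131, minus strand) show that the match lies just past the start, with the motif in capitals.
Lats2: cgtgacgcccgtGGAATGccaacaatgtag

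Other genes of the pathway were counted by list, with the log2 fold change given for each gene named. Of 17 other YAP/TAZ target genes, from a signature first drawn up in human tumours, 8 were higher, 4 were lower and 5 did not pass, with a median of 0.31. This and the counts of the lists that follow stand against 30.5% of all genes tested that were called, 13.7% higher and 16.8% lower. The tissue factor gene F3, which starts blood clotting, differed most: it was at 7.22 and 7.32 CPM in WT and at 55.0 and 53.5 CPM in cKO (2.90 ± 0.082 SE, adjusted p = 8.07e-06). The receptor kinase Axl (0.68), the transmembrane regulator of BMP signals Crim1 (0.87), the RNA-binding gene Rbms3 (1.10), the kinase gene Nuak2 (0.59), the phosphatase gene Ptpn14 (0.48), Arhgef17 (0.32) and Asap1 (0.26) also rose. The ectonucleotidase Nt5e (CD73, -2.35), the IGF carrier Igfbp3 (-1.81), the extracellular matrix gene Ccdc80 (-1.002) and the ligand Tgfb2 (-0.47) fell. Myof, among the 3 with the highest CPM of the list, had a value of -0.12 and did not pass. The genes called thus lay in both directions in this list, as among the members.

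Of the DNA-binding partners, 6 of 8 TEAD and VGLL genes could be tested and all 6 passed. Tead1 (0.42), Tead2 (0.53) and Tead3 (1.07) were higher, while Tead4 was lower (-1.04). The TEAD cofactor Vgll3 was higher (0.54), and Vgll4, which competes with YAP for TEADs, was lower (-0.43). The median of the 6 was 0.48. On the TPM scale Tead1 was the most abundant TEAD, at 18.85 and 16.55 TPM in WT and 27.23 and 25.25 TPM in cKO. Tead4 was the least abundant, at 3.61 and 3.14 TPM in WT and 1.64 and 1.86 TPM in cKO, so the TEAD that was lower was also the scarcest.

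Among 20 genes of the Hippo core and its upstream regulators, 6 were higher, 2 were lower and 12 did not pass, with a median of 0.12, a share of 8 in 20 called that is not far from that background. The scaffold gene Wwc1 (KIBRA, 1.81) went from 1.69 and 2.33 CPM to 7.10 and 6.90 CPM. The angiomotin gene Amot (0.87), the LIM protein gene Ajuba (0.72), the protocadherin gene Dchs1 (0.64) and the kinase genes Stk4 (0.25) and Lats1 (0.21) were also higher, and the FERM domain gene Frmd6 (-0.28) and the scaffold gene Sav1 (-0.26) were lower. Map4k4 (-0.17) and Mob1a (0.11), the genes with the highest CPM of the list, did not pass.

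Of 11 genes for cell surface partners of CCN proteins, 4 were higher, 2 were lower and 5 did not pass (median 0.11). The heparan sulfate proteoglycan Sdc4, to which CCN proteins bind, was at 450 and 523 CPM in WT and at 219 and 218 CPM in cKO (-1.15), and the integrin gene Itga5 was also lower (-0.32). Itgb3 (0.96), Itga6 (0.81), Itgb2 (0.41) and the endocytic receptor gene Lrp1 (0.40) were higher. Itgb1 (0.11) and Itgb5 (0.14), next to Lrp1 in CPM, did not pass. Itgb2 and Itgam are leukocyte integrins. Itgam, which is also among the macrophage markers counted above, had a value of -0.01 and did not pass.

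A list of 15 genes held the factor gene Srf, its cofactor genes Mkl1 and Mkl2, and genes of the actin cytoskeleton that they drive. SRF and its cofactors share many inputs with YAP and TAZ. Of the list, 7 genes were lower, 1 was higher and 7 did not pass, Srf, Mkl1 and Mkl2 among these (median -0.04). The smooth muscle genes Cnn1 (-1.75), Tpm2 (-0.85), Acta2 (-0.70), Actg2 (-0.63), Myl9 (-0.60), Tagln (-0.33) and the actinin gene Actn1 (-0.22) fell. Cald1 rose (0.49). Flna (-0.04), which had the highest CPM of the list, did not pass. Over these 5 lists 40 genes passed, and 20 without cKO replicate 1, 23 without cKO replicate 2 and 23 with the cKO libraries summed.

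**Figure D4:**
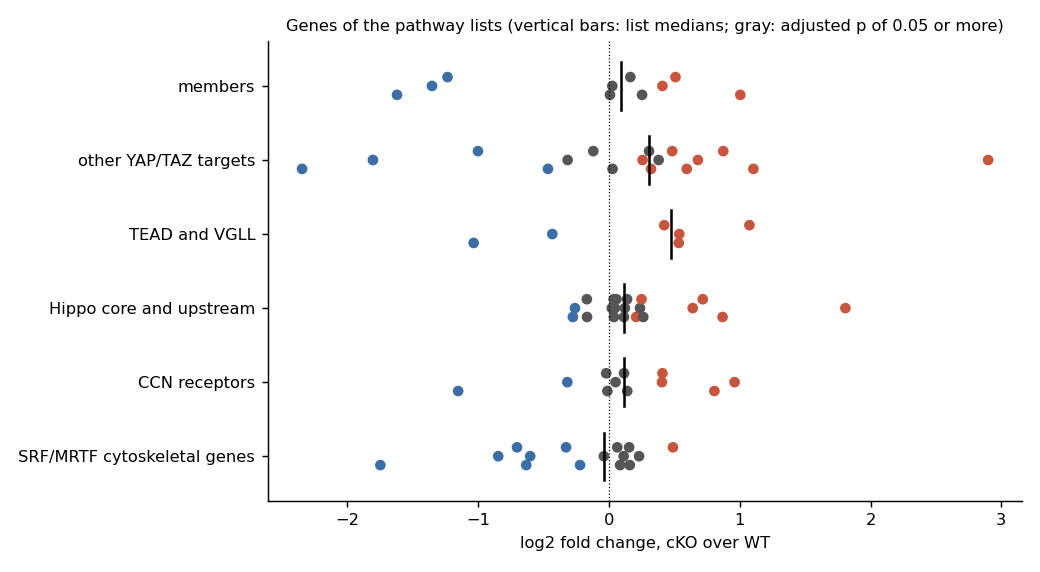
log2 fold change, cKO over WT (x axis), of the 10 genes and of the genes tested in 5 pathway lists (rows). Dots are genes, red called higher, blue called lower and gray not called, and vertical bars are list medians. Each row holds genes called in both directions.

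In WT MSCs, 6 of the 10 genes held an m6A peak summit and 4 (Nov, Wisp2, Ankrd1 and Wwtr1) held none. Of 14118 genes tested that the mm9 annotation also holds, 42.0% held a peak, and of those with a mean of at least 10 CPM 50.9% did, so a share of 6 in 10 is near the background. That mean was taken over the WT and cKO groups, and by it Ankrd1 and Nov lay under 10 CPM. The peak list is from wild type MSCs, and in the WT libraries alone Ankrd1 had a mean of 0.913 CPM and Nov of 12.5 CPM. A peak list cannot show a site where few fragments were sequenced. The 14 peaks of the members lay on Lats2 (5), Amotl2 (3), Ctgf (2), Yap1 (2), Cyr61 (1) and Wisp1 (1), and 0.914% of genes held 5 or more. By their summits, 8 lay in coding sequence, 5 in a 3′UTR and 1 in a 5′UTR, where coding sequence held 61.5%, 3′UTRs 25.4% and 5′UTRs 5.51% of all peaks in genes. The fold enrichment of IP over input had a median of 2.956 over the members' peaks and of 4.033 over all peaks, and the summit pileup a median of 107.5 against 60.0 fragments. Of the 14, 4 peaks lay above the median of all peaks in fold enrichment, at 4.794 to 7.173. The list gives 1 value per peak and no replicate values, so no error can be given.

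The most enriched peak of Lats2 (mm9 chr14:58352861-58353163) had a fold enrichment of 7.173, and its summit lay 69 bases after the first coding base, in exon 2 of 8. The other 4 lay further along the coding sequence, with fold enrichments of 2.395, 3.47, 3.582 and 2.3. On Amotl2 the most enriched peak (mm9 chr9:102634772-102635181, 6.807) lay in the 3′UTR, 956 bases past the last coding base, a second (2.718) at 173 bases past it, and the third (mm9 chr9:102622394-102622741, 3.007) in coding exon 3 of 11. Yap1 held a peak 329 bases past the last coding base (mm9 chr9:7934007-7934418, 5.164) and one 150 bases before it (mm9 chr9:7934519-7934820, 2.838). Wisp1 held a peak 307 bases past the last coding base (mm9 chr15:66750938-66751463, 4.794).

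On Ctgf and Cyr61 a summit lay near the stop codon, a region where m6A is known to gather on mRNAs. That of Ctgf (mm9 chr10:24317267-24317503, 2.533) stood 12 bases before the last coding base and that of Cyr61 (mm9 chr3:145310451-145310768, 2.905) 26 bases after it. Ctgf held another peak in its 5′UTR (mm9 chr10:24315256-24315456, 2.844), where Gm15270 also lies. Both genes thus held a peak near the stop codon, on different sides of it by their summits, with pileups of 141 and 181, while Ctgf was higher in the libraries labelled cKO and Cyr61 overlapped between the groups. Among the 6 members that were called, 3 (Ctgf, Wisp1 and Amotl2) held a peak and 3 (Nov, Wisp2 and Ankrd1) did not. The 3 with a peak were the 3 that were higher. With 10 genes, and with a peak also on Cyr61, Lats2 and Yap1, this is given as a description and was not tested.

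**Figure D5:**
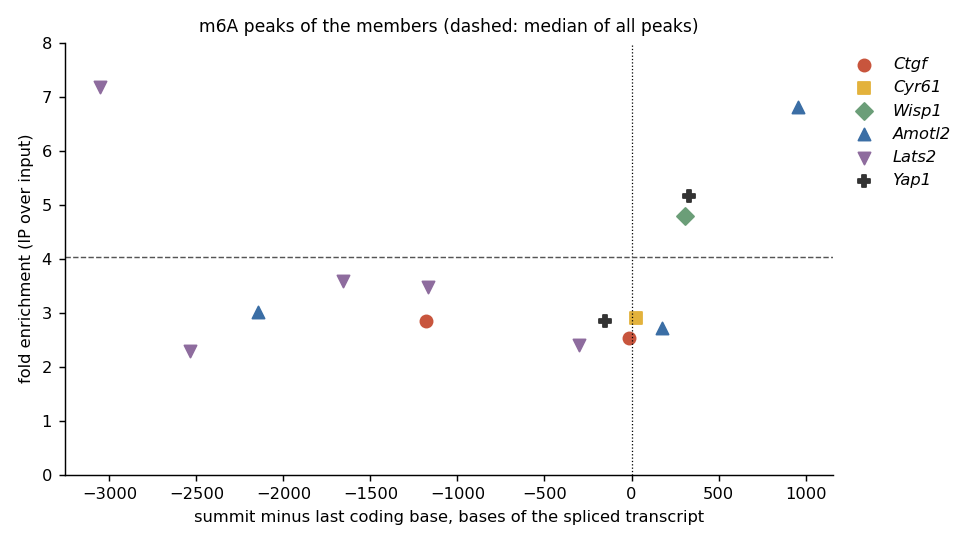
Fold enrichment of IP over input (y axis) of the 14 m6A peaks of 6 members against the distance of the summit from the last coding base along the spliced transcript (x axis, in bases; negative values lie before it). The dashed line marks the median of all peaks, 4.033, and 4 of the 14 peaks lie above it, on Lats2, Amotl2, Yap1 and Wisp1.

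The letters GGAC, the core of the motif that the m6A writer prefers, were searched on the transcript strand in each peak, and 12 of the 14 held them, against 85.4% of 7482 peaks of 201 to 526 bases. The copy nearest the summit is shown for 6 peaks from mm9, with GGAC in capitals, because these are the sites near the stop codons of Ctgf and Cyr61, the most enriched peaks of Lats2 and Amotl2, the only peak of Wisp1, and the coding peak of Yap1, which is the less enriched of its 2. The windows of Ctgf (chr10:24317420-24317449, plus strand), Cyr61 (chr3:145310586-145310615, minus strand), Wisp1 (chr15:66751196-66751225, plus strand) and Amotl2 (chr9:102634982-102635011, plus strand) hold 30 bases. Those of Lats2 (chr14:58352894-58352974, minus strand) and Yap1 (chr9:7934608-7934688, minus strand) hold 81 coding bases, and that of Yap1 holds 2 copies.
Ctgf: ccaggaagtaagGGACacgaactcattaga
Cyr61: cctagtgtgggctGGACagaggagaagcgc
Wisp1: gttcctccttggGGACattctacatcattc
Amotl2: tcccaccagcagGGACtgggagagggagct
Lats2: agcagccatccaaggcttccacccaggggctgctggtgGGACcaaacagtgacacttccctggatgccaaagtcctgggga
Yap1: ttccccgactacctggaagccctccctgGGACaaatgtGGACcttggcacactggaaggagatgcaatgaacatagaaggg

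In the peaks shown, the A of the nearest GGAC lay 7 bases from the summit for Cyr61 and Amotl2, 2 bases for Yap1, 32 bases for Ctgf, 50 bases for Lats2 and 110 bases for Wisp1. In the peaks not shown that held the letters, the distance was 40, 19 and 1 bases on Lats2, 14 and 299 bases on Amotl2 and 113 bases in the more enriched peak of Yap1. MeRIP-Seq fragments of the length used here do not resolve which A was methylated.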

How the data were processed

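Total RNA of MSCs was sequenced by RNA-seq (4 libraries), and m6A immunoprecipitates and inputs by MeRIP-Seq. The authors deposited estimated counts per gene and, in columns headed fpkm, values that sum to 1000000 per library and are treated as TPM here. Per the labels, reads were mapped with HISAT2 2.0.4 on mm10 (RNA-seq), and TopHat, MACS2 and mm9 are named as well. The counting tool is not given in the sources used here. The authors deposited 1 peak list with pileup signal, fold enrichment (a ratio of IP to input) and −log10 p and q; whether replicates were pooled is not stated. Genes and groups came from symbols and labels, and the 10 genes and the lists were chosen with earlier results of these data known. The other genes named were those of each list past the threshold and the 3 of highest CPM.

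Counts were rounded. The 89 entries without a gene name (0.11% to 0.125% of counts) were left out. edgeR 4.0.16 (R 4.3.3; filterByExpr with a minimum count of 10, TMM, prior count 0.125) gave quasi-likelihood tests, two-sided, with Benjamini-Hochberg adjustment over 15327 genes and a threshold of 0.05. The procedure was run on simulated counts that had the same spread in both groups. That run therefore does not test how the unequal spread of these libraries affects the calls. A peak was placed on a gene by its summit. Alternatives used DESeq2 1.42.0, limma 3.58.1 on log2(TPM + 0.1) or log2(TPM + 1), an ordinary linear model, other size factors, no filter, the replicate number as a block, each library left out, and the knockout libraries summed. For symbols with several entries (Tead2, Itgam, Tgfb1i1) that of highest CPM was used.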

Additional observations from a re-analysis of the deposited data

How the results depend on the processing

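The count of 4677 genes past the threshold was 65 with the ordinary linear model and 2012 with the knockout libraries summed, and it ran from 1867 to 8750 when 1 library was left out (8750 without WT replicate 1, 7934 without WT replicate 2, 1904 without cKO replicate 1 and 1867 without cKO replicate 2). The count of members past it, 6 in the main fit, was 0 with the ordinary linear model and 4 to 8 when 1 library was left out. The count of list genes was 1 with the ordinary linear model, 23 with the knockout libraries summed, and 20 to 59 when 1 library was left out. Replicate numbers did not pair the libraries (the differences between replicates 1 and 2 correlated at 0.0264 over genes), and with them as a block 4881 genes, 6 members (4 higher, 2 lower) and 39 list genes passed. On the TPM scale the median log2 fold change of all genes moved by 0.10, and 55.2% of the called genes were higher (pseudocount 0.1) or 55.7% (pseudocount 1), against 44.9% on the counts. Cyr61 turned negative without WT replicate 2 (-0.0548) and without cKO replicate 1 (-0.00577), and Lats2 with TPM (-0.0191 and -0.0187 with limma, -0.0187 with the ordinary model) and without WT replicate 1 (-0.0205), none of which passed. Without WT replicate 1 Cyr61 was at 0.0741 (adjusted p = 0.0404). In fits without a WT library the spread comes from the cKO pair alone (coefficient of variation 1.92%, against 12.3% in WT), so their calls are not read as support. The highest value of Lats2 was 0.0774, without WT replicate 2. The causes were not tested. The members with a peak numbered 6 by overlap with an exon and with a −log10 q of at least 10, and 4 above the median fold enrichment. Ankrd1 (8 to 33 counts) is where depth limits precision most.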
